A study of Homo sapiens with 18 samples.

Results

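The 10 genes KDM2B, PCGF1, BCOR, BCORL1, RING1, RNF2, RYBP, YAF2, USP7 and SKP1 encode subunits of the Polycomb complex ncPRC1.1. They were taken by name among the 19974 protein-coding genes of the autosomes and chromosome X. Peaks of 6 chromatin immunoprecipitation sequencing (ChIP-seq) lists were collected over each gene record of assembly GRCh38.p14 and 10 kb either side, here called the window. The lists describe MDA-MB-231, an established triple-negative breast cancer line. KDM2B, MYC, trimethylated H3K4 (H3K4me3), trimethylated H3K27 (H3K27me3) and ubiquitinated H2AK119 (H2AK119ub) were profiled in parental cells that had no stated treatment. Acetylated H3K27 (H3K27ac) was profiled in cells carrying an empty vector, so its peaks come from another derivative of the line than those of the other 5. Each of these targets had 2 libraries and 1 deposited list, and both kinds of cell had input libraries. No value has a replicate error, and no p-value is given. A fold is the authors' enrichment over background at a peak and serves here to rank peaks of the same list. Read depth is unknown, because the lists hold no counts, and RNA was not measured in these samples. In such bulk chromatin, a mark on fewer cells and a weaker mark on every cell cannot be told apart.

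In ncPRC1.1, KDM2B binds unmethylated CpG dinucleotides through its CXXC zinc finger and brings the complex to CpG islands. PCGF1 pairs with RING1 or RNF2, the ubiquitin ligases that place H2AK119ub, while BCOR or BCORL1 joins this core to KDM2B. RYBP and its paralogue YAF2 bind the ligases, SKP1 binds the F-box of KDM2B, and USP7 is a deubiquitinase found with the complex. H3K27me3 is the mark of the other Polycomb complex, PRC2, and H3K4me3 and H3K27ac mark active promoters.

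As a check on the cell line, H3K4me3 and H3K27ac lay within 1 kb of a record end at all 5 mesenchymal genes examined (VIM, CD44, ZEB1, AXL and FOSL1), against 69.4% and 63.7% of all protein-coding genes. Both marks were there at 3 of 6 luminal or epithelial genes, FOXA1, GATA3 and EPCAM. PGR had H3K4me3 without H3K27ac, and ESR1 and CDH1 had neither. Of 3 genes of blood and liver cells, CD3E had H3K4me3 without H3K27ac, and PTPRC and ALB had neither.

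All 10 genes carried MYC, H3K4me3 and H3K27ac together, as 73.9% of all protein-coding genes did, and 8 carried KDM2B itself. RYBP and YAF2 were the exceptions. Counted in the same way, 59.4% of all genes had KDM2B in the window (71.2% of those with H3K4me3), 78.7% had MYC, 82.6% had H3K4me3 and 78.2% had H3K27ac. H2AK119ub was in the window of 7 genes, against 68% of all genes, and H3K27me3 in that of 5, against 50.1%. PCGF1, RING1, RYBP and USP7 had both Polycomb marks (44.7% of all genes), and KDM2B, BCOR and SKP1 had H2AK119ub alone (23.3%). BCORL1 had H3K27me3 alone (5.41%), and RNF2 and YAF2 had neither (26.5%). The members' records are long, with a median of 71.9 kb against 24.2 kb for all genes, so long genes were also counted apart. Among the 7 members with records over 50 kb, 5 had KDM2B, where 67.1% of all genes of that length had it, so the count of KDM2B-bearing members lay near the background. H2AK119ub was at 4 of these 7 (64.1%) and H3K27me3 at 3 (48.1%), while none of the 7 lacked MYC (87.3%), H3K4me3 (92.2%) or H3K27ac (88.6%). All 8 with KDM2B also had MYC, H3K4me3 and H3K27ac, a combination found at 57.3% of genes.

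**Figure D1:**
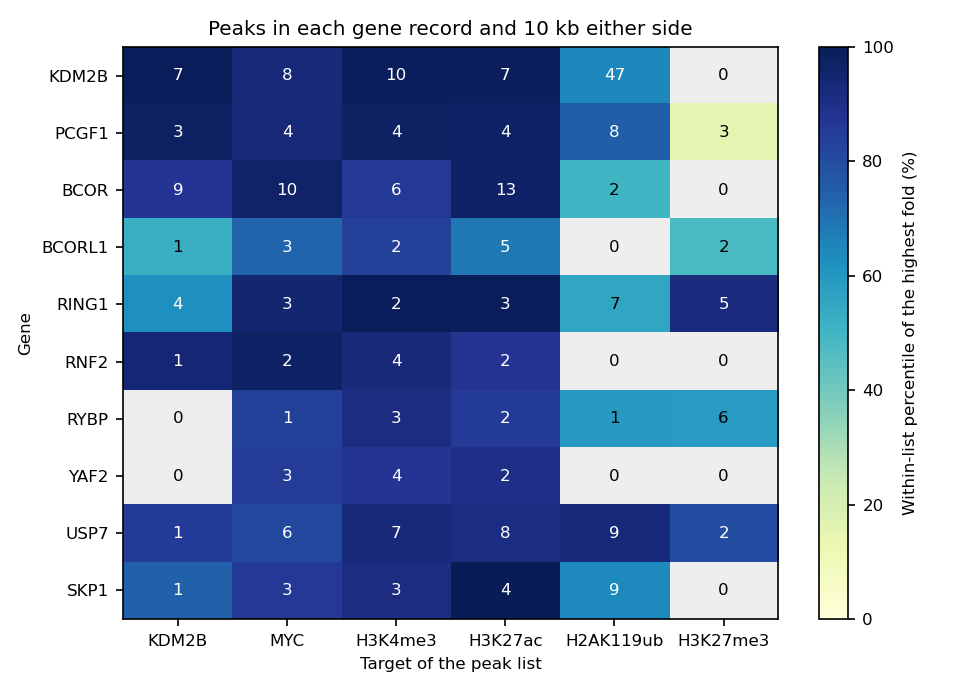
Peaks of 6 targets (columns) in the records of 10 ncPRC1.1 genes and 10 kb either side (rows). Numbers are peaks, colour is the percentile of the highest fold within its own list, and grey marks no peak. MYC, H3K4me3 and H3K27ac have peaks in every row, while KDM2B is missing at RYBP and YAF2.

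Inside the records proper, without the flanks, H3K27me3 was in 0 of the 10 genes, against 31.6% of all genes. H2AK119ub was in 4 records, those of KDM2B, BCOR, RING1 and USP7, against 56.8% of all genes. The KDM2B factor was in the records of the same 8 genes as with the flanks, against 48.5%, and MYC, H3K4me3 and H3K27ac were in all 10 (71%, 76.3% and 70.4%). These counts show that the H3K27me3 seen near 5 members lay wholly in the flanks.

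The promoter table gave strand and position for 17 start sites of the 10 genes, and all 10 genes matched it. Each window of 300 bases held 250 bases before and 50 after the start. KDM2B overlapped 6 of the 17, in 5 genes, where 30.5% of all 22156 such windows of protein-coding genes had it. Within 1 kb it was at 10 of the 17, in 8 genes, against 46.6%. MYC and H3K4me3 each overlapped 14 (59% and 66.3%) and H3K27ac 13 (59.7%). H2AK119ub overlapped 0 (17.5%) and H3K27me3 0 (14.3%), and within 1 kb H2AK119ub was at 4, in KDM2B and USP7 alone (32.4%), and H3K27me3 at 0 (18.9%). The counts within 1 kb were again 14, 14 and 13 for MYC, H3K4me3 and H3K27ac (62.7%, 68% and 62.7%). The 3 starts without MYC or H3K4me3 were the second of BCOR and the 2 inner ones of USP7.

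The 250 bases before 6 start sites are shown because KDM2B recognises CpG and because the set pairs starts that bear its peak with starts that do not. Each is read 5′ to 3′ toward the start, from RefSeq with build GRCh38.p14, and capitals mark CpG. For KDM2B the upper start is the one at 121580246 and the innermost start the one at 121467378, far inside the gene.
KDM2B upper start (chr12:121580247-121580496, minus strand): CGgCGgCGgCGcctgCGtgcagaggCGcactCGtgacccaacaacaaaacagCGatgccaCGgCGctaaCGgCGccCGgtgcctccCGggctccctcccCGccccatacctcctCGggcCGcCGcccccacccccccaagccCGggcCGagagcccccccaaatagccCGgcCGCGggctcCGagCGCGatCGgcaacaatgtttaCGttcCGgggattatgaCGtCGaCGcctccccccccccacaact
KDM2B innermost start (chr12:121467379-121467628, minus strand): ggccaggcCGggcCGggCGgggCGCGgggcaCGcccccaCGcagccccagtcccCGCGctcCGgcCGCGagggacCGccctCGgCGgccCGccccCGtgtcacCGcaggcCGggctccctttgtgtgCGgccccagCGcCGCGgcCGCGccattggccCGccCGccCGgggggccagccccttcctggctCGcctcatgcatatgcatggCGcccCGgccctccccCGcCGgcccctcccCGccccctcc
RNF2 (chr1:185045308-185045557, plus strand): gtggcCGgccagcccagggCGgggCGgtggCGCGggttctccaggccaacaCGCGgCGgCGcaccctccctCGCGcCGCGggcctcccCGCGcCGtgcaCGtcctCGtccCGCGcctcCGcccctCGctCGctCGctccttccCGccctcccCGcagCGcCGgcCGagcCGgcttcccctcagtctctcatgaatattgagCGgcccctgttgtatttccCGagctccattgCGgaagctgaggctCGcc
BCORL1 first start (chrX:129980729-129980978, plus strand): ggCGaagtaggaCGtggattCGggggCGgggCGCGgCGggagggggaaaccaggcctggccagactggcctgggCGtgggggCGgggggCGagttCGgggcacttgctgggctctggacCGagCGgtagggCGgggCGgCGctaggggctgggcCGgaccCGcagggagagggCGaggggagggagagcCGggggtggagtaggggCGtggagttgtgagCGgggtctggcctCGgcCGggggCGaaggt
RYBP (chr3:72446624-72446873, minus strand): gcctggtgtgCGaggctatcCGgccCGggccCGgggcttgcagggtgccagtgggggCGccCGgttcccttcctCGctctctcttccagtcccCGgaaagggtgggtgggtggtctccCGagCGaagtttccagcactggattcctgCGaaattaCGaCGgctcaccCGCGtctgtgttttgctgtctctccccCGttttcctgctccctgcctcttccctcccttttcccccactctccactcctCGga
YAF2 (chr12:42238249-42238498, minus strand): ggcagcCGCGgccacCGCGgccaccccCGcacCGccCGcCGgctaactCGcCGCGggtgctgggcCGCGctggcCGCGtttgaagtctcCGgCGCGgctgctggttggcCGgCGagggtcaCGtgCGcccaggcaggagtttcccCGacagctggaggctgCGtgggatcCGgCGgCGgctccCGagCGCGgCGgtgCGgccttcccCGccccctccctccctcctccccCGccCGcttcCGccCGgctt

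RNF2 held 34 CpG in these 250 bases, all inside its KDM2B peak, and the innermost start of KDM2B also held 34, with 49 bases under the edge of a peak. BCORL1 held 25, with 107 bases under its short peak. YAF2 held 37 and no KDM2B peak, the KDM2B start at 121580246 32 and none, and RYBP 17 and none. The count of CpG did not order these 6 starts by KDM2B, but they are a chosen set from which no rule can be drawn. Of the upper starts of KDM2B the one with most CpG was taken. Starts poor in CpG and without KDM2B were left out, such as that of USP7 at 8936639 with 0 in its window. In the windows of 300 bases, KDM2B-bearing starts had a median of 31 CpG over all genes and the others 14. Among the members the medians were 38.5 for the 6 with KDM2B and 29 for the 11 without. PCGF1 bore KDM2B with 14 CpG, and the USP7 start at 8963906 held 50 with none in the window. Of all windows with 20 to 44 CpG, the counts of RYBP and YAF2, 49.4% overlapped KDM2B.

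The motif CACGTG, an E-box that MYC can bind and that reads alike on both strands, was in 2 of the 17 windows, against 8.34% of all. These were YAF2, where it contains 1 of the capital pairs above, and the first start of BCOR. MYC peaks were at 14 windows, so 12 of them lay where these letters were absent from the window.

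KDM2B, the CXXC-domain subunit, is transcribed from the minus strand of chromosome 12 over a record of 173.8 kb (chr12:121408461-121582279). RefSeq start sites lie at 121581023, 121580246 and 121579659, with the innermost one at 121467378. The window held 7 KDM2B peaks, of which 5 lay in the record. The other two flanked the start of RNF34, a neighbouring ubiquitin ligase gene, with folds of 3.47 and 4.85. The highest H3K4me3 fold in the window, 59.9, and the highest H3K27ac fold, 51.4, also belonged to the RNF34 start and not to KDM2B.

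The KDM2B factor was thus found at 3 places along its own gene. At the upper starts a single narrow peak (chr12:121579407-121579633) had a fold of 2.37, at the 13.4th percentile of the list, with a −log10 q of 2.00. At the innermost start 3 peaks had folds of 3.49, 3.71 and 5.73, and their summits lay 850 and 306 bp downstream and 422 bp upstream of it. The strongest peak was between these places, 42157 bp downstream of the nearest start site of the gene (chr12:121536791-121538902). It was 2112 bp wide, had a fold of 7.52 and stood at the 99.3th percentile of all KDM2B peaks. No start site of the promoter table used here lies at that place, and exons were not resolved.

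The other targets met KDM2B at the same 3 places but in another order of strength. The MYC fold was 4.11 where it met KDM2B at the upper starts, 11.9 at the strongest KDM2B peak and 17.0 at the innermost start. Another MYC peak at the upper starts, of fold 7.47, met no KDM2B peak and lay nearest to the start of the noncoding gene KDM2B-DT. The H3K4me3 fold was 29.2, 38.9 and 47.8 at these places in turn, with peaks 8627, 7108 and 9443 bp wide. H3K27ac varied little, at 9.51, 7.56 and 9.39. H3K4me3 and MYC were thus highest at the innermost start, where the list for KDM2B itself ranked second of the 3 places. MYC and KDM2B summits lay 65 bp apart at the strongest KDM2B peak and 102 bp apart at the stronger peak of the innermost start.

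H2AK119ub, the mark that ncPRC1.1 places, was spread over the same record. The window held 47 peaks covering 25661 bp, or 13.2% of it, more than in 69.2% of all genes. Their folds were low, from 1.63 to 2.65 with a median of 2.14, and none had a −log10 q above 6.37. Merged across gaps of 3 kb they formed 10 domains, the widest of 23.02 kb. The mark was densest between the innermost start and the strongest KDM2B peak, with 23 peaks over 20.2% of that stretch. From that peak to the upper starts 12 peaks covered 14.8%, and from the innermost start to the end of the gene 11 peaks covered 8.27%. The remaining 1 lay outside the record, above the upper starts (chr12:121591386-121591805). H2AK119ub met KDM2B peaks at all 3 places, with folds of 2.14 at the upper starts, 2.36 at the strongest peak and 2.65 at the innermost start. At the upper starts only the edges met, as the H2AK119ub peak ended at 121579418 and the KDM2B peak began at 121579407. At the strongest KDM2B peak, 2112 bp wide, the H2AK119ub peak had 512 bp. The −log10 q of these H2AK119ub peaks was 2.68, 4.02 and 5.85 in turn, so only the last passed q under 1e-5. H3K27me3 had no peak in the window.

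**Figure D2:**
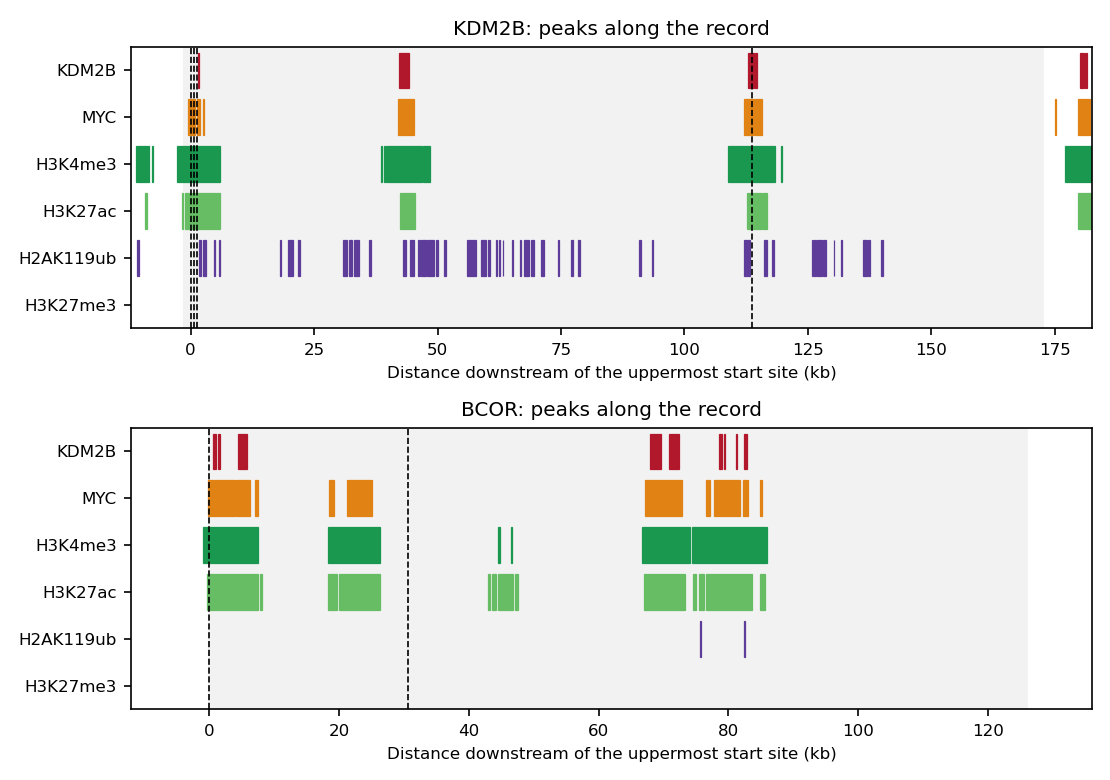
Peaks along KDM2B (top) and BCOR (bottom), plotted by distance in kb downstream of the uppermost start site. Bars are peaks of each target, dashed lines are start sites and the shaded area is the gene record. KDM2B peaks sit at 3 places of its own record, and H2AK119ub peaks are spread between them, while BCOR has 2 such peaks.

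BCOR, which links the PCGF1 and ligase core to KDM2B, had the most KDM2B peaks of the 10 genes, 9 over a record of 126.0 kb on chromosome X (chrX:40051246-40177277, minus strand). The first 3 lay 743, 1557 and 4464 bp downstream of the start at 40177277, with folds of 2.92, 2.92 and 3.76. The remaining 6 lay deep in the gene, 38070 to 51924 bp downstream of the second listed start at 40146633, at folds from 2.92 to 4.87, and their nearest start site is that of the noncoding gene LOC107985687. In all, 3 of the 9 peaks share the same fold and −log10 q (2.92 and 2.98), and 4 of the 9 missed the stricter limit of q under 1e-5.

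MYC was strong at the BCOR start, with a fold of 22.1, and reached 12.2 over the internal KDM2B cluster. A separate active site within the record (chrX:40150918-40159032) had H3K4me3 of 21.7, MYC of 13.9 and H3K27ac of 13.8 but no KDM2B peak. The second listed start of BCOR, at 40146633, had none of the 6 targets within 1 kb. H3K27ac was highest at the first start, at 41.9. H2AK119ub had 2 short peaks of 236 and 281 bp in the gene, of folds 2.24 and 2.46, and H3K27me3 had none.

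BCORL1, the paralogue of BCOR (chrX:129980313-130058071, plus strand), had a single KDM2B peak of 197 bp. Its fold was 3.34 and its summit lay 36 bp downstream of the start at 129980979. MYC had the same fold, 4.14, at both listed starts of BCORL1, the lowest MYC value at a marked start among the 10 genes after KDM2B's own 4.11. H3K4me3 of fold 23.1 covered both starts over 7618 bp. H3K27ac was absent from the first start and had a fold of 3.66 at the second, so the KDM2B peak of BCORL1 was the 1 of 27 in these windows that overlapped no H3K27ac. The nearest H2AK119ub peak was 224711 bp from that KDM2B peak, and 2 H3K27me3 peaks lay 6501 and 7686 bp upstream of the start.

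Both paralogues are on chromosome X, where the KDM2B list was thin. Of the KDM2B peaks, 151 (0.754%) were on this chromosome, and 11.8% of its 848 protein-coding genes had KDM2B in the window, against 59.4% of all genes. H2AK119ub was in the window of 25.4% of genes on X and H3K27me3 of 40.3%. MYC was there in 53.9%, H3K4me3 in 64.3% and H3K27ac in 60.5%, and both paralogues had each of these. The part of X copy number, read depth or mapping in these shares was not tested.

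RING1 and RNF2 encode the 2 ligases, and their surroundings differed. RNF2 (chr1:185045558-185102603, plus strand) had 1 KDM2B peak of 1085 bp and fold 5.58, at the 94.0th percentile of the list, with its summit 132 bp downstream of the start. MYC had its highest fold of the 10 genes there, 24.5, beside H3K4me3 of 43.9 and H3K27ac of 18.4. Neither Polycomb mark had a peak in the RNF2 window, and the summit of the nearest H2AK119ub peak was 276172 bp away.

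RING1 (chr6:33208500-33212716, plus strand) is a short gene among close neighbours. A single H3K4me3 peak of 19999 bp, wider than 99.8% of that list, ran over RXRB, SLC39A7, HSD17B8 and RING1, with a fold of 63.2 reached 7193 bp upstream of the RING1 start. MYC was 10.2 at that start and 18.9 near the start of RXRB. The 4 KDM2B peaks of the window had folds from 2.86 to 3.65. One covered the RING1 start at 3.48, others lay at the starts of RXRB and HSD17B8, and the fourth lay 5135 bp downstream, past the end of the record. RING1 had the window's H2AK119ub in 7 peaks, of which 2 were in the record, 1628 and 3534 bp past the start. H3K27me3 began past the gene's end, in a peak of 5356 bp (chr6:33214078-33219433). Of its 5 peaks there the highest fold was 4.18, the highest of the mark in any member window.

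PCGF1, the subunit that defines the complex, has a record of 2.65 kb (chr2:74505043-74507695, minus strand). KDM2B peaks of fold 4.48 and 3.90 had summits 172 bp downstream and 484 bp upstream of its start. The strongest KDM2B peak of the window, 6.32, lay at the start of LBX2, a homeobox gene. MYC was 17.5 at PCGF1 and 12.3 at LBX2. H3K4me3 spanned both in 1 peak of 15830 bp, and H3K27ac in 1 of 9491 bp. The 8 H2AK119ub peaks of the window lay on either side of PCGF1, 5 around LBX2 and 3 around the homeobox gene TLX2, and the 3 H3K27me3 peaks all lay nearest to TLX2. None of these marks touched the PCGF1 record, and the H2AK119ub peaks nearest to its start were 5490 bp downstream and 6041 bp upstream by their summits.

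**Figure D3:**
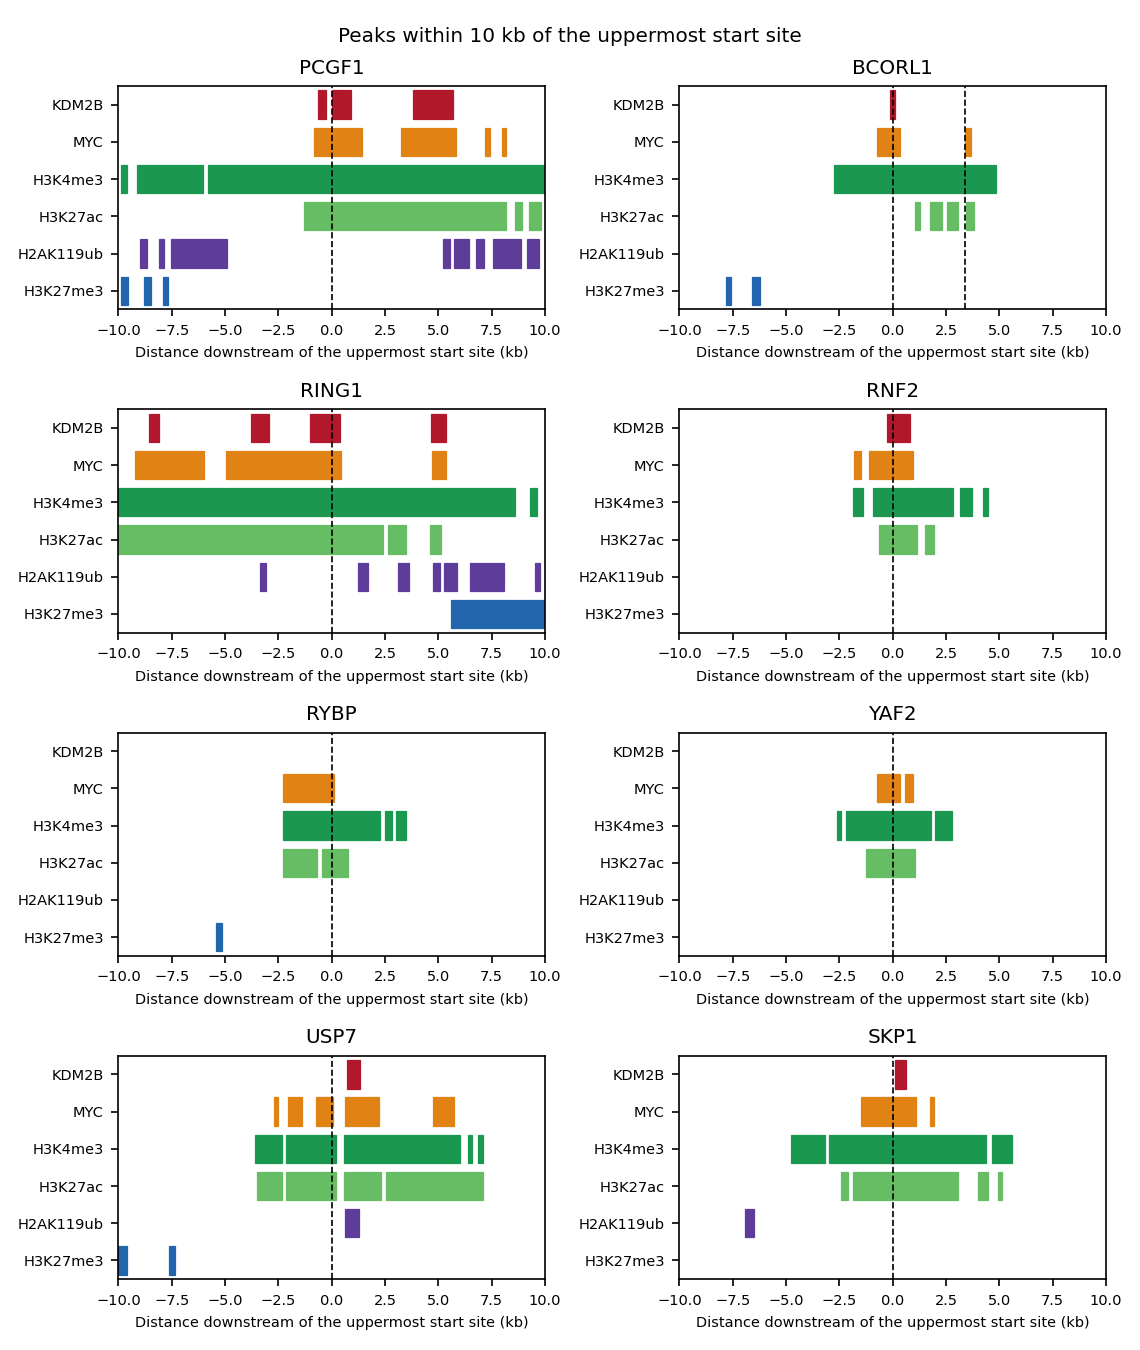
Peaks within 10 kb of the uppermost start site of the 8 genes other than KDM2B and BCOR. The axis is distance in kb downstream of that start, bars are peaks, and dashed lines are start sites of the gene. Every start has MYC and H3K4me3, and RYBP and YAF2 have no KDM2B.

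RYBP and YAF2, the alternative ligase-binding subunits, were the pair without KDM2B. The nearest KDM2B summit was 550505 bp upstream of the RYBP start and 93139 bp downstream of the YAF2 start. Both starts were otherwise marked. RYBP (chr3:72374597-72446623, minus strand) had MYC of 10.1, H3K4me3 of 42.0 and H3K27ac of 15.4. YAF2 (chr12:42157104-42238248, minus strand) had 10.9, 34.8 and 21.3.

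By the highest fold in the window, 6 of the 8 members with KDM2B had H3K4me3 above both genes, and BCOR and BCORL1 had it below both. SKP1, at 42.08, was almost level with RYBP at 41.97. Some of these values belong to neighbours. KDM2B had 47.8 in its record alone, still above both. The peaks of RING1 and PCGF1 cover their starts but have summits nearest to other genes' starts. The USP7 value lay nearest to the start of USP7-AS1, and the peak over the USP7 start had 19.6, below both. For MYC 6 of the 8 were above both, and USP7 and BCORL1 were below. The RING1 value here was that near the RXRB start, and in the record alone RING1 had 10.2, between RYBP and YAF2. The other members kept their place in the record alone. For H3K27ac 6 were again above both, RNF2 lay between them and BCORL1 was below. The KDM2B value here was that of the RNF34 start, and in the record alone KDM2B had 9.51, below both. The other members kept their place in the record alone, though over the USP7 start itself the fold was 10.5, also below both. Of the 2669 H3K4me3 peaks in the whole list with a fold from that of YAF2 to that of RYBP, 75.5% overlapped KDM2B. Of the 900 MYC peaks with a fold in the corresponding range, 69.2% did. RYBP had 6 H3K27me3 peaks in its flanks, 5 of them beyond the 3′ end and 1 at 5276 bp upstream of the start, and a single H2AK119ub peak of 176 bp beyond the 3′ end. YAF2 had neither mark.

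USP7 and SKP1 are shared with other complexes of the cell. USP7 (chr16:8892097-8963906, minus strand) had 1 KDM2B peak of fold 4.73, with its summit 1069 bp downstream of the start at 8963906 and 124 bp downstream of that of the noncoding gene USP7-AS1. At this place MYC was 9.31, H3K4me3 44.9 and H3K27ac 24.1, while over the USP7 start itself they were 4.596, 19.6 and 10.5. An H2AK119ub peak of 655 bp, the only one within 1 kb of a listed start of any member outside the KDM2B gene, lay here with a fold of 3.40, the highest of the mark in any member and at its 93.0th percentile. The other 8 H2AK119ub peaks of the window lay around LITAFD, past the 3′ end. The 2 further listed starts of USP7, at 8949654 and 8936639, had none of the 6 targets within 1 kb.

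SKP1 (chr5:134148935-134176950, minus strand) had 1 KDM2B peak of fold 4.10, with its summit 383 bp downstream of the start. Its H3K27ac fold of 76.5 was the highest of the 10 genes and stood at the 99.6th percentile of that list. MYC was 11.5 and H3K4me3 42.1. Of 9 H2AK119ub peaks, 8 lay past the 3′ end within TCF7 and 1 lay 6537 bp upstream. SKP1 had no H3K27me3.

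**Figure D4:**
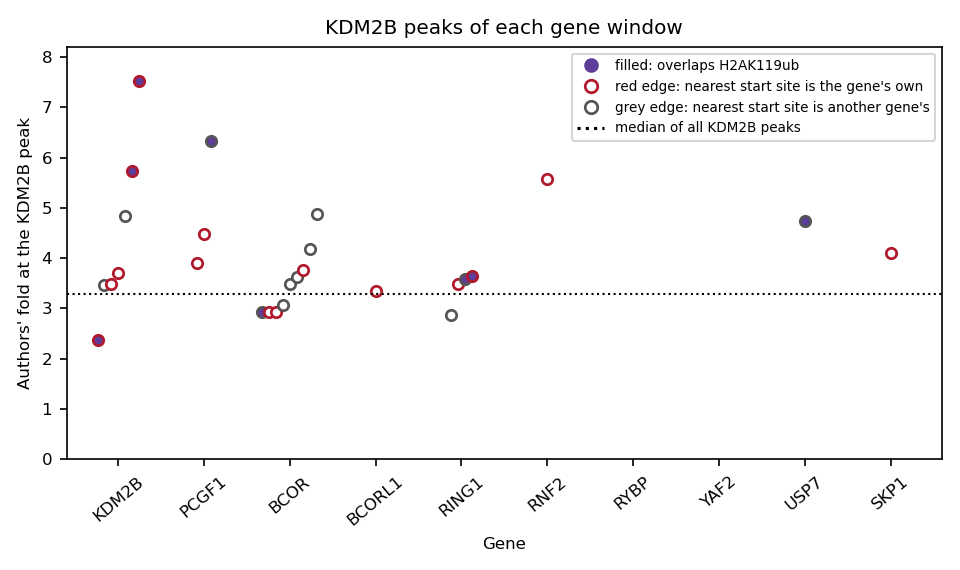
The authors' fold at each of the 27 KDM2B peaks, by gene. Filled points overlap H2AK119ub, edge colour shows whose start site is nearest, and the dotted line is the median of 3.29 over all KDM2B peaks. The highest point, 7.52, is in KDM2B itself, and RYBP and YAF2 have no point.

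Over the 8 genes the 27 KDM2B peaks had folds from 2.37 to 7.52, with a median of 3.65 against 3.29 for all 19982 KDM2B peaks on these chromosomes. MYC overlapped all 27 (81.7% of all KDM2B peaks did), H3K4me3 all 27 (78.3%) and H3K27ac 26 (74.1%), so that 26 met all 3 (72.4%). H2AK119ub overlapped 8 (24.6%) and H3K27me3 0 (4.91%). The 8 were 3 in KDM2B, 2 in the RING1 window, and 1 each at BCOR, USP7 and LBX2 in the PCGF1 window. The median distance to the nearest MYC summit was 318 bp, against 257 bp for all KDM2B peaks. For 15 of the 27 the nearest start site was the member's own, and the other 12 lay nearer to a neighbour or to a noncoding gene. These peaks share genes and neighbourhoods and are not replicates.

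Strong H3K4me3 and KDM2B went together in these windows, as in the whole list. Of 16 H3K4me3 peaks with a fold of at least 20, a limit set after the values were seen, 13 overlapped KDM2B, against 75.6% in the whole list. Of the 29 weaker peaks none did, against 2.57%. The strong peaks were also wider, from 3775 to 19999 bp, than the weaker ones, from 202 to 3414 bp. A wide peak meets another by 1 bp more easily, and the part of width here was not tested. The 3 strong peaks without KDM2B were those of RYBP and YAF2 and the second active site of BCOR. Just under the limit, at 19.6, lay the H3K4me3 peak over the USP7 start, also without KDM2B.

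The Polycomb marks covered a larger share of the windows of the 2 short genes than of the long ones. H2AK119ub covered 28.8% of the PCGF1 window, 16.7% of that of RING1, 13.2% of that of KDM2B, 8.27% at SKP1, 4.17% at USP7, 0.354% at BCOR and 0.191% at RYBP. The median over the 10 genes was 2.26%, and over all protein-coding genes 2.36%. H3K27me3 covered 30.7% of the RING1 window, 4.19% at PCGF1, 2.14% at RYBP, 0.769% at USP7 and 0.566% at BCORL1. In both short genes the flanks that hold neighbours make up most of the window.

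**Figure D5:**
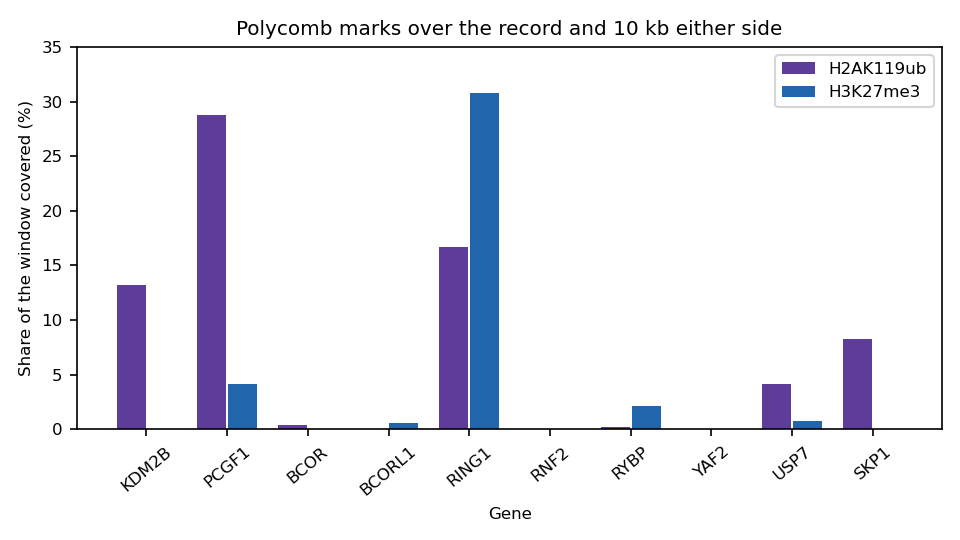
Share of each window (gene record and 10 kb either side) under H2AK119ub and H3K27me3 peaks, in percent, 1 value per gene and list. PCGF1 and RING1 have the tallest bars, at 28.8% and 30.7%, and RNF2 and YAF2 have none.

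Genes for other Polycomb complexes were counted in the same windows. KDM2B was in the window of 10 of 12 canonical PRC1 subunit genes, 11 of 12 PRC2 subunit genes and 16 of 18 genes for subunits of other non-canonical PRC1 complexes. KDM2B was also at 3 of 5 genes for removal of H2AK119ub, ASXL2 at 3.85, ASXL1 at 3.79 and BAP1 at 3.44. Over all protein-coding genes the share was 59.4%, and 71.2% among those with H3K4me3. CBX8, BMI1 and PHC2 had the highest KDM2B folds of canonical PRC1, at 6.88, 6.65 and 6.27. EPOP, JARID2 and SUZ12 led PRC2 at 5.98, 5.39 and 4.52, and FBRS, DCAF7 and WDR5 the other non-canonical genes at 15.2, 5.74 and 5.61. All these folds are the highest in each window, and whether the peaks lay nearer to a neighbour's start was not examined.

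MYC, H3K4me3 and H3K27ac were at every gene of the 3 subunit lists, as at all 10 members and at 73.9% of all protein-coding genes. H3K27me3 was in the window of 10 canonical PRC1 genes, 5 PRC2 genes and 10 other non-canonical genes, and H2AK119ub of 10, 7 and 14. Over all protein-coding genes the shares were 50.1% for H3K27me3 and 68% for H2AK119ub. The highest H2AK119ub fold had a median of 2.64 among the 7 members with the mark and 3.10 among all genes with it. It was 3.39 for canonical PRC1, 3.01 for the other non-canonical genes, 2.91 for PRC2 and 2.65 for removal of H2AK119ub. The members stood level with the last of these lists, where only 3 of 5 genes had the mark. Some of the members' values lay nearest to the start of a neighbour, as at PCGF1 (LBX2) and SKP1 (TCF7). These differences between lists were not tested.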

How the data were processed

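Gene members and lists were chosen with earlier results of these data known. The 18 libraries formed 9 groups of 2 by antibody and cell stock in their titles, and whether the pair in a group stems from separate cultures is not stated in the labels. Chromatin was digested enzymatically, per the labels' protocols. Libraries started from 5 ng of DNA for KDM2B, 1 ng for MYC and 50 ng for H3K4me3, H3K27me3, H2AK119ub and input. The submitters' processing notes name MACS2 2.2.7.1, SAMtools 1.6, Bowtie2 2.4.5 and Trim Galore, the last without a version, and build hg38. Which control each list had, and whether libraries were pooled, are points not given in the sources used here. A narrow-peak caller can split broad marks into many peaks. ATF4 was not analysed here, and 1 marker of other cell types is not reported here.

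The deposited score equals 10 times the −log10 q, cut to a whole number, in 99.8% of H3K4me3 peaks and in a larger share of the other lists. The deposited fold is the authors' ratio over background, and the −log10 of the q-value in the deposited lists is their caller's. The highest deposited q-value was 0.05 when rounded. The deposited lists hold no counts, so depth is unknown.

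Records came from RefSeq GRCh38.p14, which gives no exons here, and start sites with strand from its promoter table. A target was counted at a gene where a peak shared 1 bp or more with the window. Percentiles rank a fold within its own list. Distances run from peak summits unless a gap is named. Alternatives changed the window, the peak threshold and the overlap. Windows of 300 bases at start sites, nearest-start assignment, the limit of fold 20 and the set without BCOR were chosen after seeing the data. Named genes were the 10 members, neighbours nearest to a described peak, and up to 3 genes of each comparison list with the highest KDM2B fold. Interval counting was tested on simulated data. Python 3.11.15, pandas 2.3.3, numpy 2.4.6 and matplotlib 3.10.9 were used.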

Additional observations from a re-analysis of the deposited data

How the results depend on the processing

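No paired analysis was possible because the 2 libraries of a target share 1 deposited list whose columns carry no replicate, and for the same reason no replicate could be left out. Of 98 alternative values of the counts, 74 stayed within 1.5 times the main count and 24 did not. Counts of members with MYC, H3K4me3 and H3K27ac stayed at 9 or 10 under every alternative run, and KDM2B at 7 or 8 except with start windows of 300 bases, where it was 5. Both Polycomb marks depended on the setting. From 7 members H2AK119ub went to 4 with the record alone or with 1 kb around it, 2 within 1 kb of the ends, 4 with q under 1e-5 (KDM2B, PCGF1, USP7 and SKP1), 0 with the 15000 peaks of highest fold, 0 in start windows and 3 without peaks nearer to another gene's start. H3K27me3 went from 5 members to 0 with the record alone, with 1 kb around it, at the ends, with the 15000 peaks and in start windows, and to 3 with q under 1e-5. The cause was not tested beyond what the smaller windows and fewer peaks set by construction.

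KDM2B peaks overlapping MYC and H3K4me3 went from 27 each to 15 of 15 when peaks nearer to another gene's start were left out, and those overlapping H3K27ac from 26 to 14 of 15, or to 17 of 18 without BCOR; in these the total shrank with the count. With the 15000 peaks of highest fold in each list the shares fell for MYC (23 of 26) and H3K27ac (20 of 26), while H3K4me3 stayed at 26 of 26. KDM2B peaks overlapping H2AK119ub went from 8 to 2 of 21 with q under 1e-5, 0 of 26 with the 15000 peaks of highest fold, 3 with at least 50% of the peak covered, 4 with the KDM2B summit inside, 5 of 20 in the records alone and 4 of 15 with nearest starts. The overlap with H3K27me3 was 0 in each. Of the 50 highest folds, the record alone left 35 unchanged, changed 7 (4 by over 1.5 times) and left no peak for 8. At the ends these numbers were 30, 8 (6) and 12. The BCORL1 peak was lost with q under 1e-5.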

Other observations

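KDM2A, the paralogue of KDM2B that shares its CXXC and demethylase domains, had 7 KDM2B peaks in its window with a highest fold of 5.49. MYC reached 15.2 there, H3K4me3 54.5 and H3K27ac 48.4. H2AK119ub covered 1.67% of the KDM2A window in 5 peaks, against 13.2% in 47 peaks at KDM2B, and H3K27me3 had 4 peaks at KDM2A and 0 at KDM2B. This difference was not tested.

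By the percentiles of the highest fold over the 6 targets, the 5 protein-coding genes most like KDM2B were C4orf36, SOD2, H3-3B, PTK2 and RHOA, at Euclidean distances of 2.91, 5.05, 5.12, 5.38 and 5.55 percentile points. The KDM2B values in this measure include the RNF34 start, which lies in its window. Absence of a peak counted as 0 in this measure, so the lack of H3K27me3 at KDM2B was part of the choice.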
